A study of Danio rerio with 3 samples.

Results

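Paraxial mesoderm is the tissue on either side of the notochord that is cut into somites, from which the trunk muscles, the vertebrae and part of the dermis arise. The 10 regulators of this tissue described here, measured in whole zebrafish embryos, were chosen by name from the deposited table of 35117 genes: msgn1, mespaa, mespab, mespba, mespbb, ripply1, meox1, tcf15, myf5 and myod1. All 10 were found by symbol, once each. RNA was sequenced from wild-type embryos without treatment at 10 hours post fertilization (hpf), represented by 2 libraries, and at 6 hpf, represented by 1 library. All embryos came from wild-type crosses and were raised at 28.5 degrees in embryo medium. The labels do not say how many embryos were pooled or whether the libraries of 10 hpf came from separate clutches. The comparison addresses which transcripts differ in level between the end and the beginning of gastrulation.

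Expression was given by the authors as RPKM, the number of reads per kilobase of gene scaled by the total number of reads, with a single value for 10 hpf that covers both libraries and a single value for 6 hpf. No spread between replicates can be stated, and the 6 hpf value has no replicate check. The steps between low RPKM values corresponded to a total of 23243206 reads for 10 hpf and of 16991533 for 6 hpf. A single read per kilobase then stood for 0.0430 RPKM at 10 hpf and 0.0589 RPKM at 6 hpf. From these totals the whole reads behind the RPKM values could be worked out for 9 of the 10 genes. Intervals below are exact 95% intervals from these reads. They cover counting error only, since reads are not independent molecules, and they say nothing about variation between clutches. In whole embryos, a difference in the number of cells that express a gene and a difference in RNA per cell cannot be told apart.

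As background, cells that leave the margin of the gastrula and the tailbud become presomitic mesoderm under Wnt, FGF and T-box factors, and msgn1 (mesogenin), a basic helix-loop-helix (bHLH) factor, acts in this step. In the anterior presomitic mesoderm the mesp genes, also of the bHLH class, mark the next segment to form, and ripply1, which works with Groucho corepressors, helps to end that programme. Formed somites express the homeobox gene meox1 and the bHLH gene tcf15 (paraxis). The bHLH factors myf5 and myod1 commit cells to skeletal muscle, first in the adaxial cells beside the notochord.

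These genes took different courses between the stages. The genes meox1 and tcf15, the muscle determination genes myf5 and myod1 and both mespb genes rose between 12.4-fold and 533-fold in RPKM. Both mespa genes fell, mespab 4.67-fold and mespaa 1.95-fold. Presomitic msgn1, the most abundant of the 10 at 10 hpf and 1.02 times mespab at 6 hpf, and ripply1 had 2.21 and 1.48 times the RPKM at 10 hpf that they had at 6 hpf, and neither was called. A gene was called where the authors' deposited table gave an empirical false discovery rate (E-FDR) under 0.05, and its direction is the sign of the deposited log2 fold. By this rule 6 of the 10 genes were called higher and 2 lower at 10 hpf, while 9.70% of all 35117 genes were called higher and 19.8% lower. All 8 calls were also made at an E-FDR under 0.01 (26.0% of all genes). All 8 also had an absolute log2 fold of at least 1 (28.7% of all genes were called with it, against 29.5% without it). Both lower calls were kept once fold and conservative bound were centred on the median gene (13.4% of all genes for lower calls, 23.1% for either direction). The median subtracted is negative, so centring could remove lower calls only, and the 6 higher calls could not be lost. Each of the 10 reached 1 RPKM at 10 hpf, and 4 did at 6 hpf. Among the 17494 genes at 1 RPKM or more at either stage, 16.3% were called higher and 32.9% lower.

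**Figure D1:**
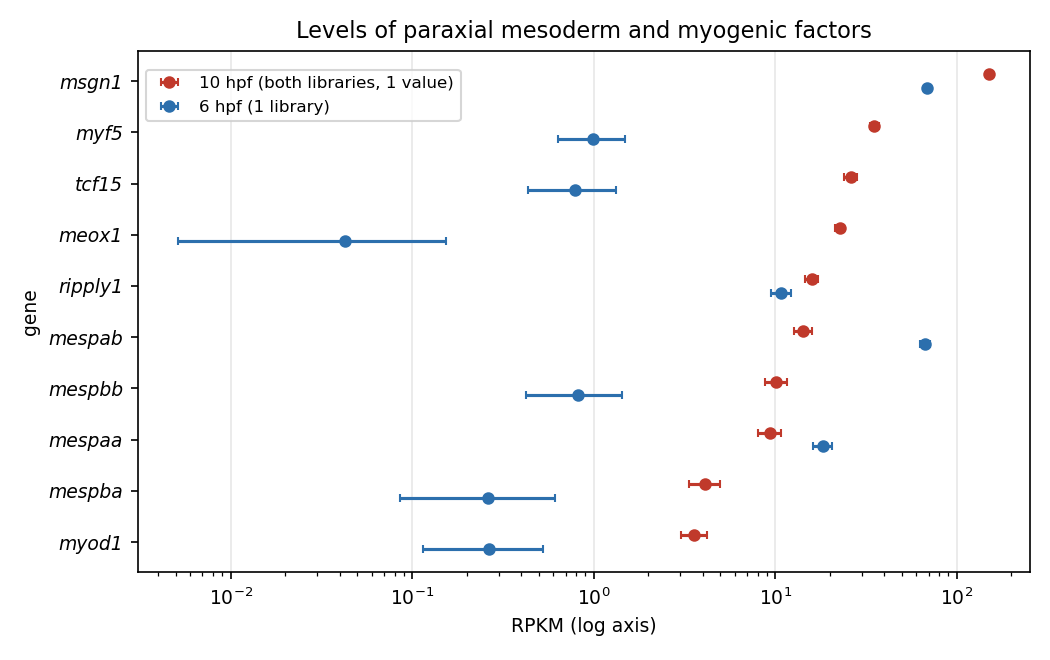
RPKM of the 10 genes on a log axis, with 10 hpf in red above 6 hpf in blue and genes ordered by their 10 hpf value. Bars are exact 95% Poisson intervals from the reads (counting error only, not drawn for msgn1, whose reads were not settled); the 10 hpf values lie between 3.57 and 151 RPKM and the 6 hpf values between 0.0425 and 68.4 RPKM, with the 10 hpf value to the left of the 6 hpf value in mespab and mespaa only.

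The presomitic factor msgn1 (ENSDARG00000070546) stood at 151 RPKM at 10 hpf and at 68.4 RPKM at 6 hpf. At 10 hpf 458 genes, or 1.30% of the table, had a higher RPKM than msgn1, and at 6 hpf 1111 genes did. Its values correspond to 3514 reads per kilobase at 10 hpf and 1162 reads per kilobase at 6 hpf, which for 1 kilobase of gene gives an interval of 2.07 to 2.36 around the 2.21-fold difference. The difference is thus larger than counting error, but it was not called in the authors' deposited table, where its log2 fold was 0.53 and its conservative fold 0. The deposited folds run on another scale than the RPKM values. The median gap between the fold in the authors' deposited table and the log2 ratio computed from RPKM was −0.60 (SD 0.042) across 7009 genes above 5 RPKM at both stages. For genes reaching 5 RPKM at either stage, the deposited fold had a median of −0.50. Relative to that median the log2 fold of msgn1 was 1.03.

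The mesp genes moved in opposite directions according to their type. In zebrafish there are 2 genes of type a and 2 of type b, and in the RefSeq annotation of assembly GRCz12tu each type a gene has a type b gene as its next protein-coding neighbour, mespab beside mespbb on chromosome 25 and mespaa beside mespba on chromosome 7. As background, the zebrafish mespa genes are expressed in the gastrula margin as well as in presomitic mesoderm, whereas mespb genes are known from the segmenting presomitic mesoderm. The lower level of mespab (ENSDARG00000068761), 14.3 RPKM at 10 hpf against 66.9 RPKM at 6 hpf, rested on 307 reads at 10 hpf and 1049 reads at 6 hpf. It fell 4.67-fold, with a counting interval of 4.11 to 5.33, and was called lower (log2 fold −2.74, E-FDR 0.000599 in the authors' deposited table).

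A smaller decrease was found for mespaa (ENSDARG00000017078), with 9.36 RPKM from 193 reads at 10 hpf and 18.2 RPKM from 275 reads at 6 hpf. It fell 1.95-fold (interval 1.62 to 2.36) and was called lower (log2 fold −1.51, E-FDR 0.00181 in the authors' deposited table). This call lies close to the edge. Once the fold and its conservative bound were centred on the median gene, the conservative bound of mespaa was −0.09, and on a plain 2-fold rule for log2(RPKM + 1) it was not counted. On the scale of the deposited folds, the 1.95-fold lower RPKM of mespaa was called and the 2.21-fold higher RPKM of msgn1 was not.

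Of the type b genes, mespbb (ENSDARG00000097947) had 10.2 RPKM from 203 reads at 10 hpf, against 0.821 RPKM from 12 reads at 6 hpf. It rose 12.4-fold, with an interval of 6.93 to 24.3 that is wide because of the few reads at 6 hpf. Its partner mespba (ENSDARG00000030347) had 4.11 RPKM from 107 reads at 10 hpf, against 0.263 RPKM from 5 reads at 6 hpf, and rose 15.6-fold (interval 6.50 to 49.2). Both were called higher at an E-FDR of 0.000599, with log2 folds of 2.82 for mespbb and 2.97 for mespba in the authors' deposited table. The ratio of mespba was 1.27 times that of mespbb, with an exact counting interval of 0.401 to 4.70, so a difference in size between the type b genes was not detectable at this depth. The intervals of mespab and mespaa, by contrast, do not overlap.

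These courses changed the proportions of the mesp transcripts, all 4 of which had reads at both stages. The summed level of the 4 genes was 37.9 RPKM at 10 hpf and 86.2 RPKM at 6 hpf, and the type b genes held 14.3 RPKM of the sum at 10 hpf and 1.08 RPKM at 6 hpf. On chromosome 25, mespab exceeded its neighbour mespbb 1.41-fold at 10 hpf and 81.5-fold at 6 hpf. On chromosome 7, mespaa exceeded mespba 2.28-fold at 10 hpf and 69.4-fold at 6 hpf. In both gene pairs the type a gene was the more abundant at both stages, by a smaller factor at 10 hpf. The mesp genes are paralogues, and the sources used here do not give how reads matching more than 1 gene were assigned. The part of such reads in these values was not tested.

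**Figure D2:**
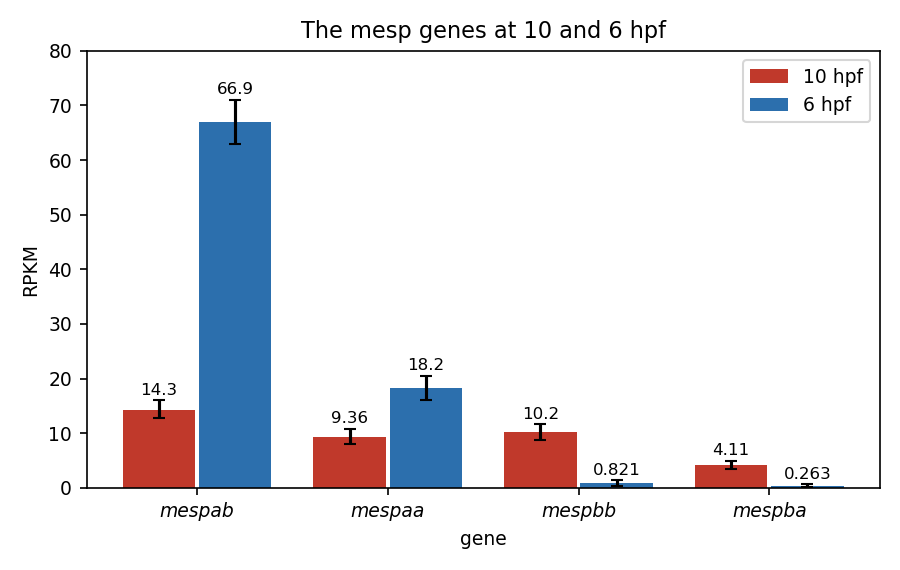
RPKM of the mesp genes, with 10 hpf bars (red) left of 6 hpf bars (blue) for each gene and exact 95% Poisson intervals from the reads (counting error only). The type a genes mespab and mespaa stand at 14.3 and 9.36 RPKM at 10 hpf, below their 66.9 and 18.2 RPKM at 6 hpf, and the type b genes mespbb and mespba stand at 10.2 and 4.11 RPKM at 10 hpf, above their 0.821 and 0.263 RPKM at 6 hpf.

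The segmentation repressor gene ripply1 (ENSDARG00000054103) was already present early, with 15.9 RPKM from 523 reads at 10 hpf and 10.8 RPKM from 259 reads at 6 hpf. The ratio of 1.48 had a counting interval of 1.27 to 1.72. It was not called, and its direction depended on the scale, as the authors' deposited table had −0.04 as its log2 fold while the log2 RPKM ratio was 0.56. No direction is therefore given for ripply1. Of the 10 genes it was the only one whose sign differed between these scales.

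The genes meox1 and tcf15 differed in their level at 6 hpf. Their levels in whole embryos do not show whether somites had formed by 10 hpf. The homeobox gene meox1 (ENSDARG00000007891) had 22.6 RPKM from 1458 reads at 10 hpf, against 0.0425 RPKM from 2 reads at 6 hpf. The ratio of 533 is poorly bounded, with an interval of 147 to 4405, because it rests on those 2 reads. The authors' deposited table lists it with a log2 fold of 7.44 and an E-FDR of 0, and 14 genes of the table had a larger fold. The bHLH gene tcf15 (ENSDARG00000067544) had 26.1 RPKM from 631 reads at 10 hpf, against 0.791 RPKM from 14 reads at 6 hpf. It rose 32.9-fold (interval 19.5 to 60.6) and was called (log2 fold 4.24, authors' deposited table). The intervals of meox1 and tcf15 do not overlap. At 10 hpf the level of tcf15 was 1.15 times that of meox1, and at 6 hpf 18.6 times, which again rests on 2 reads of meox1. In the RefSeq annotation other genes overlap tcf15, and 1 gene each overlaps mespaa and myf5, while the sources used here do not give whether reads were counted by strand.

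The muscle determination genes rose together, from unequal levels. For myf5 (ENSDARG00000007277) there were 35.2 RPKM from 1159 reads at 10 hpf, against 0.998 RPKM from 24 reads at 6 hpf, a 35.3-fold rise (interval 23.6 to 55.3). For myod1 (ENSDARG00000030110) there were 3.57 RPKM from 147 reads at 10 hpf, against 0.266 RPKM from 8 reads at 6 hpf, a 13.4-fold rise (interval 6.64 to 31.7). Both were called higher, with log2 folds of 4.41 for myf5 and 2.87 for myod1 in the authors' deposited table. The ratio of myf5 was 2.63 times that of myod1, with an exact counting interval whose upper end is 6.18 and whose lower end lies just above equal ratios. Per length, myf5 exceeded myod1 9.87-fold at 10 hpf and 3.76-fold at 6 hpf. At 10 hpf myf5 was second in level to msgn1 among the 10 genes, and myod1 was last. The later factors of the same family were near or at 0: myog, which acts in muscle differentiation, was at 0.0304 RPKM at 10 hpf and listed at 0 at 6 hpf, and myf6, the next protein-coding neighbour of myf5 in the RefSeq annotation, was listed at 0 at both stages.

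The order of the levels shows the change in make-up. At 10 hpf it ran from msgn1 through myf5, tcf15, meox1, ripply1, mespab, mespbb, mespaa and mespba to myod1. In that order, 3 pairs of neighbours had overlapping counting intervals, namely ripply1 and mespab, mespbb and mespaa, and mespba and myod1. At 6 hpf msgn1 and mespab led with almost equal levels (68.4 RPKM for msgn1 and 66.9 RPKM for mespab, whose interval was 62.9 to 71.1), followed by mespaa and ripply1. The other 6 genes were all under 1 RPKM at 6 hpf, and among these 6 the intervals of neighbours in the order overlapped. As sums, msgn1 and the mespa genes made up 59.8% of the RPKM of the 10 genes at 10 hpf and 91.7% at 6 hpf. Taken apart, their shares moved in opposite directions. The share of msgn1 alone was 51.7% at 10 hpf and 40.8% at 6 hpf. That of the mespa genes was 8.09% at 10 hpf and 50.8% at 6 hpf. For meox1 and tcf15 the share was 16.7% at 10 hpf and 0.498% at 6 hpf, and for myf5 and myod1 it was 13.3% at 10 hpf and 0.755% at 6 hpf. The sum over all 10 was 293 RPKM at 10 hpf and 167 RPKM at 6 hpf.

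**Figure D3:**
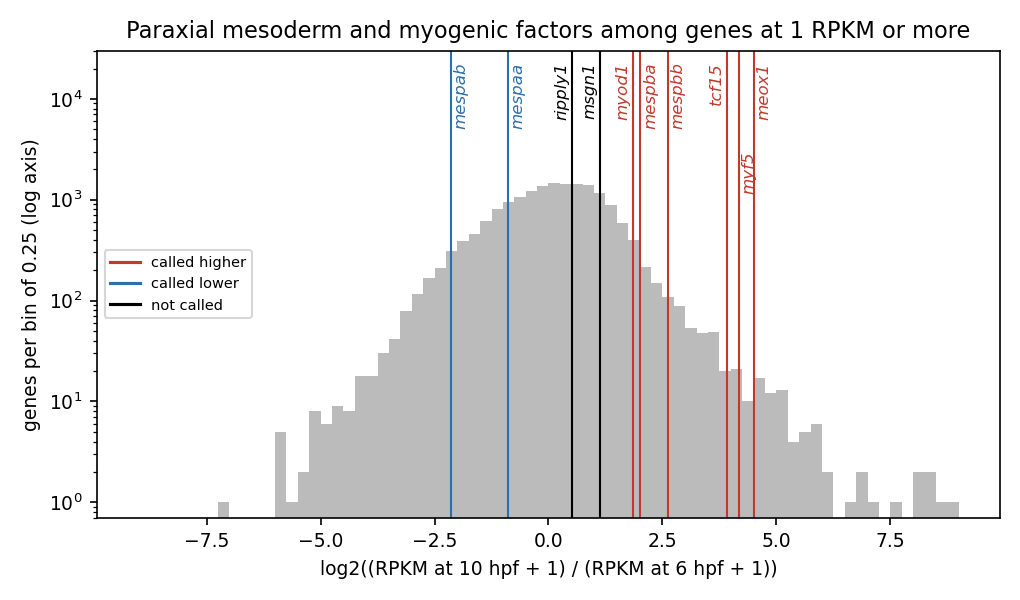
Histogram of log2((RPKM at 10 hpf + 1)/(RPKM at 6 hpf + 1)) over the 17494 genes at 1 RPKM or more at either stage (log count axis), with a vertical line for each of the 10 genes, coloured by its call in the authors' deposited table. The lines of tcf15, myf5 and meox1 lie at 3.92, 4.18 and 4.50, in the right tail, while ripply1 (0.52) and msgn1 (1.13) lie above 0 and mespaa (−0.89) and mespab (−2.15) below 0.

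Set in the whole table without a call, on log2(RPKM + 1), 7 of the 10 genes were at least 2-fold higher, against 11.0% of all genes, and 1 was at least 2-fold lower, against 9.37%. The seventh higher gene was msgn1, and the lower one was mespab. A gene under 1 RPKM at both stages cannot reach 2-fold on this scale. All 3871 higher and 3292 lower genes therefore lie among the 17494 genes at 1 RPKM or more, where their shares are larger, and so do the 10 genes. The median over the 10 genes on this scale was 1.93, against 0.14 over genes at 1 RPKM or more. For the fold of the authors' deposited table the median of the 10 was 2.84, against −0.41 over genes at 1 RPKM or more. On the scale of log2(RPKM + 1), 70 genes of the table had a larger ratio than meox1, 86 than myf5 and 106 than tcf15. For mespba (2.02) 814 genes had a larger ratio, and for myod1 (1.85) 1033 genes did.

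Genes that act before or beside these factors gave a mixed picture. Of 18 measured genes listed as upstream regulators of presomitic mesoderm (wnt8a counts with 2 identifiers), 3 were called higher and 6 lower (4 of the 6 after centring), and 9 were not called. Over all genes 9.70% were called higher and 19.8% lower (13.4% after centring). Among genes at 1 RPKM or more, which 16 of these 18 reached, the shares were 16.3% and 32.9%. The 3 upstream genes called higher were tbx6, wnt8b (3.90 RPKM at 10 hpf, 0.0321 RPKM at 6 hpf) and fgf4 (0.719 RPKM at 10 hpf, 0.0743 RPKM at 6 hpf). Neither identifier of wnt8a was called, and whether the wnt8b reads came from presomitic mesoderm was not tested. The list was made by name, and expression of its genes in other tissues of the embryo was not separated. The T-box gene tbx6, needed for segmentation, was at 79.7 RPKM at 10 hpf and 1.18 RPKM at 6 hpf, a 67.7-fold rise. The T-box gene tbx16, which acts in the same mesoderm as msgn1, fell 3.59-fold to 34.4 RPKM at 10 hpf, against 123 RPKM at 6 hpf, and the ventral and posterior homeobox gene eve1 fell 4.68-fold to 28.0 RPKM at 10 hpf, against 131 RPKM at 6 hpf. Also called lower, and kept after centring, were ta (tbxta) and sall4. The level of ta was 65.5 RPKM at 10 hpf and 233 RPKM at 6 hpf. That of sall4 was 139 RPKM at 10 hpf and 290 RPKM at 6 hpf. The remaining lower calls, fgf17 and foxd5, were lost after centring. The posterior gene cdx4, not called, was at 340 RPKM at 10 hpf and 126 RPKM at 6 hpf. In the list of the segmentation clock and somite boundary, 9 of 25 genes were called higher and 4 lower, 1 of which was kept after centring. At 5 RPKM or more, its called genes with the largest folds were the fibronectin gene fn1b, at 40.0 RPKM at 10 hpf and 0.765 RPKM at 6 hpf, the Hairy-related gene her12, at 24.5 RPKM at 10 hpf and 2.63 RPKM at 6 hpf, and itga5, which encodes a subunit of a fibronectin receptor and fell 7.07-fold to 10.4 RPKM at 10 hpf, against 73.8 RPKM at 6 hpf. The Hairy-related gene hes6 was not called at 161 RPKM at 10 hpf and 110 RPKM at 6 hpf. Other Hairy-related genes of the list differed from her12 or went with it. Already high at 6 hpf were her1 (46.1 RPKM, 30.8 RPKM at 10 hpf) and her7 (39.0 RPKM, 41.1 RPKM at 10 hpf). Of these, her1 was called lower and her7 was not called. Called higher were her11 (18.5 RPKM at 10 hpf, 2.93 RPKM at 6 hpf) and her13 (3.38 and 0.424 RPKM). The lower calls of her1, nrarpb and pcdh8 were lost after centring.

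Many genes of later somite compartments and of muscle were at low levels, though some were not. For comparison with the counts below, 9.70% of all genes were called higher and 19.8% lower (13.4% after centring). Among genes at 1 RPKM or more the shares were 16.3% and 32.9%. Of 24 somite compartment genes, 8 were called higher and 2 lower, and 12 reached 1 RPKM at 10 hpf. The dermomyotome and neural crest factor pax3a was at 7.17 RPKM at 10 hpf and 0.0921 RPKM at 6 hpf, the mesenchymal bHLH gene twist1a at 28.5 RPKM at 10 hpf and 0.769 RPKM at 6 hpf, and the forkhead gene foxc1b at 10.2 RPKM at 10 hpf and 0.301 RPKM at 6 hpf. The highest level of this list at 10 hpf was that of foxc1a (62.6 RPKM, against 19.1 RPKM at 6 hpf), called higher. Also called higher was six4b (26.3 RPKM at 10 hpf, 3.69 RPKM at 6 hpf). The 2 called lower were pax7a (0.0323 RPKM at 10 hpf, 1.26 RPKM at 6 hpf) and eya4 (1.40 RPKM at 10 hpf, 2.87 RPKM at 6 hpf). The homeobox gene six4a was not called at 6.94 RPKM at 10 hpf and 8.11 RPKM at 6 hpf. Of 41 genes of muscle commitment and differentiation, 10 were called higher and 4 lower (3 after centring), 27 were not called, and 12 reached 1 RPKM at 10 hpf. The 4 called lower were smyhc1, smyhc2, mymk and cacna1sb, none above the 1.15 RPKM of smyhc2 at 6 hpf. The 3 called genes with the largest folds among those at 5 RPKM or more were the myosin light chain gene myl10, at 12.7 RPKM at 10 hpf and listed at 0 at 6 hpf, smyd1b, which acts in myosin assembly, at 12.3 RPKM at 10 hpf and 0.874 RPKM at 6 hpf, and the actin gene actc1a, at 113 RPKM at 10 hpf and 18.1 RPKM at 6 hpf. Reads of actin genes can belong to close copies, so the values of actc1a are uncertain. The transcriptional repressor gene prdm1a was not called at 54.2 RPKM at 10 hpf and 18.9 RPKM at 6 hpf.

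Median log2 folds of these lists in the authors' deposited table were 0.29 for upstream regulators, 0.11 for the clock and boundary, 0.65 for somite compartments and 0.49 for muscle, all below the 2.84 of the 10 genes. All 10 genes reached 1 RPKM at either stage, as did 16 of 18 upstream and 25 of 25 clock and boundary genes. Only 13 of 24 somite compartment and 15 of 41 muscle genes did, so the medians of these 2 lists include many genes near 0 RPKM. The upstream list had a median above 0 although more of its genes were called lower than higher. Genes of other tissues of the same embryos were called as well. Over all genes 9.70% were called higher and 19.8% lower, or 16.3% and 32.9% among genes at 1 RPKM or more. That minimum was reached by all 9 axial, 7 of 12 lateral and intermediate and all 10 neural plate genes. In axial mesoderm 3 of 9 genes were called higher and 1 lower, and the summed level was 183 RPKM at 10 hpf and 160 RPKM at 6 hpf. In the list of lateral and intermediate mesoderm 4 of 12 were called higher and 3 lower, with a sum of 111 RPKM at each stage. Within that sum drl was called lower at 10 hpf (30.9 against 70.4 RPKM at 6 hpf). The level of lhx1a, also called lower, fell 3.81-fold to 4.71 RPKM at 10 hpf. Called higher at 10 hpf were pax2a (16.0 against 0.298 RPKM) and pax8 (22.6 against 0.0495 RPKM). So was hand2, at 9.73 RPKM at 10 hpf and listed at 0 at 6 hpf. Under 1 RPKM at both stages, gata1a was called lower and fli1a higher. The gene osr1 was not called (24.2 RPKM at 10 hpf, 20.8 RPKM at 6 hpf). The lists were made by name, and levels in whole embryos cannot be assigned to a single tissue. In the neural plate 4 of 10 were called higher and 1 lower, with sums of 573 RPKM at 10 hpf and 471 RPKM at 6 hpf. The part of a changed tissue make-up in the levels of the 10 genes was not tested.

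**Figure D4:**
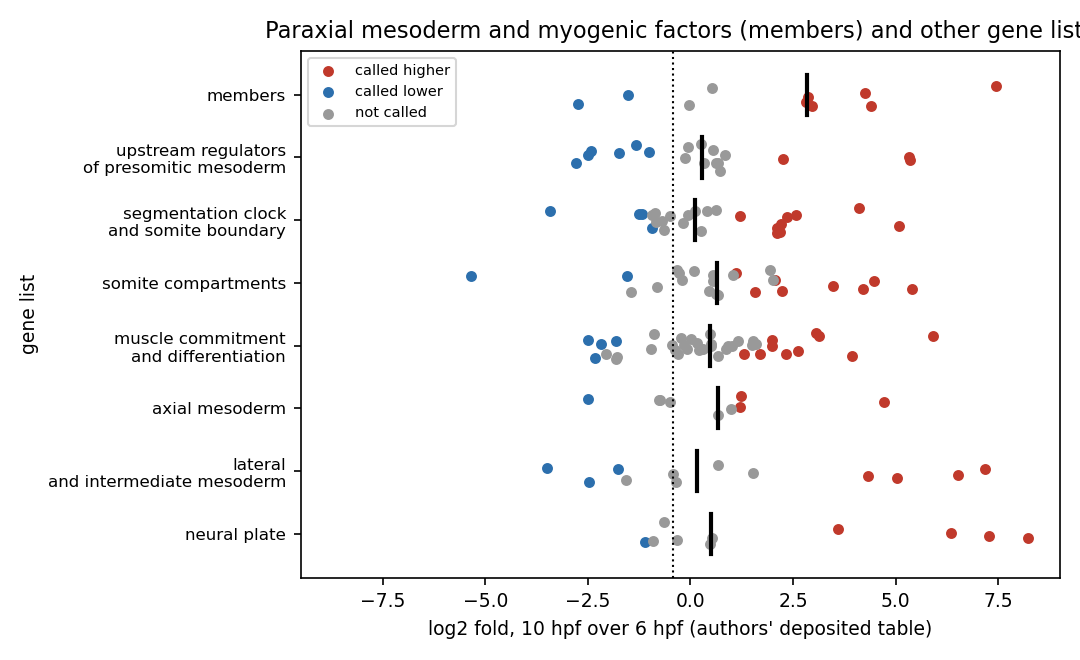
Log2 fold (10 hpf over 6 hpf, authors' deposited table) for the 10 genes (top row, labelled members) and for each gene of 7 other lists, coloured by call. Black bars are list medians, and the dotted line is the median of genes at 1 RPKM or more (−0.41); the median of the 10 genes is 2.84 and those of the other lists lie between 0.11 and 0.67. List genes under 1 RPKM at both stages are included.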

How the data were processed

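Total RNA of whole, dechorionated embryos was extracted with Trizol and sequenced with Illumina libraries, per the labels' protocols. Reads were processed with TopHat2 2.1.1 on build GRCz10, per the submitters' processing notes. For the counter, annotation and filters nothing is given in the labels or headers. The authors deposited 1 table with RPKM values for each stage, per the file headers. Per the file headers, they also deposited a log2 fold, a conservative log2 fold from GFOLD at a setting of 0.01, and an empirical false discovery rate, which is read here as a q-value.

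Members and lists were chosen with earlier results of these data known. With 1 value a stage no test was run here, and the authors' calls were used. Totals were found as the numbers of reads at which low RPKM values, printed to 6 digits, give whole gene lengths (1097 values at 10 hpf and 862 at 6 hpf). Reads of a gene are the smallest whole numbers that fit both values at a single length of 200 to 6000 bases, accepted where chance would give fewer than 0.05 such fits, which left out msgn1. Whole multiples fit as well and would narrow the intervals. In simulated data drawn for this comparison, 91.3% of 995 genes were accepted, and the reads of 82.0% of those were exact, or 99.0% with multiples. Intervals are Poisson for levels and Clopper-Pearson for ratios, at 95%, and the ratio of the ratios of a pair of genes has an exact conditional interval.

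Centring took the genes that reach 5 RPKM and subtracted their median deposited log2 fold from the fold and its conservative bound. That median is negative, so centring could remove lower calls but not higher ones, and it added no calls. From each of the 4 related lists, up to 3 called genes with the largest fold at 5 RPKM or more were named. The uncalled gene with the highest level was named too. Further list genes, some of them under 5 RPKM, were named outside this rule. Symbols were matched as deposited or through a table of gene names holding 27000 of the 35117 identifiers. Python 3.11.15 and scipy 1.17.1 were used. Coordinates are not given, since the RefSeq annotation used for neighbours is of another assembly.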

Additional observations from a re-analysis of the deposited data

How the results depend on the processing

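Of the 10 genes, 8 were called, and 8 were also counted with an E-FDR under 0.01, with an absolute log2 fold of at least 1, at 1 RPKM or more, after centring, and by the plain 2-fold rule on log2(RPKM + 1). That rule counted 7 genes higher and 1 lower, against 6 and 2 by E-FDR, since it took in msgn1 and left out mespaa. Centring could remove lower calls only. A minimum of 5 RPKM, reached by 8 of the 10, left 6 calls, because mespba and myod1 lie under it. No called gene had another direction under any of these settings or scales. The median log2 ratio over the 10 genes, 1.93 with a pseudocount of 1, was 3.40 with a pseudocount of 0.1, 0.94 with a pseudocount of 5, 1.86 with 10 hpf rescaled to the median gene, and 2.84 as the deposited fold. The 4 related lists had 46 of 108 genes called, against 29.5% of all genes, and 40 after centring, against 23.1%. These shares of all genes include genes under 1 RPKM at both stages. At 1 RPKM or more 39 were called, among 16 upstream, 25 clock and boundary, 13 somite compartment and 15 muscle genes. Of all genes at 1 RPKM or more, 16.3% were called higher and 32.9% lower. At 5 RPKM or more 26 were called, among fewer genes. That minimum left 14 upstream, 21 clock and boundary, 6 somite compartment and 6 muscle genes. Of these, 7, 10, 5 and 4 were called in turn. The share of all genes called at that minimum is not given here. Leaving out a library was not run, since 1 column covers both libraries of 10 hpf. No paired analysis was possible because 6 hpf has 1 library and the 10 hpf libraries share a column. The limits are those of depth at 6 hpf, where meox1, mespba, myod1, mespbb and tcf15 rest on 2 to 14 reads, and of the missing replicate spread.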

Other observations

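Close relatives of the 10 genes by name gave the following values. The segmentation repressor gene ripply2 was at 9.95 RPKM from 129 reads at 10 hpf and at 2.74 RPKM from 26 reads at 6 hpf, a 3.63-fold rise (counting interval 2.37 to 5.76) that was called just under the threshold, at an E-FDR of 0.0412 in the authors' deposited table. Its relative ripply3 was at 4.45 RPKM at 10 hpf and listed at 0 at 6 hpf, and was called higher. Of the Meox genes, meox2a was at 0.0214 RPKM at 10 hpf and listed at 0 at 6 hpf, and meox2b was listed at 0 at both stages, while meox1 stood at 22.6 RPKM at 10 hpf. On the RPKM scale the interval of ripply2 does not overlap that of ripply1, whose 1.48-fold ratio had an interval of 1.27 to 1.72. Whether the ripply genes differ in response was not tested beyond these counting intervals.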
